A study of Mus musculus with 6 samples.

Results

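Zbtb16, which encodes the zinc finger transcription factor PLZF, was 8.31-fold higher in the lung libraries labelled ISM1-KO than in those of wild-type (WT) mice, and the highest value by far came from ISM1-KO replicate 3. It was examined with 9 other genes of the glucocorticoid response, namely Fkbp5, Tsc22d3, Sgk1, Klf9, Dusp1, Zfp36, Mt1, Mt2 and the receptor gene Nr3c1. The 10 genes were taken by symbol from the 54532 genes of the count table, and all 10 were among the 18689 genes that passed the filter on low counts. They were chosen with their differences between genotypes already known, so those differences are given as a description and carry no test.

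RNA-seq was performed on perfused whole lungs of untreated mice at 2 months of age, with 3 libraries per genotype that the labels number as replicates 1 to 3. ISM1 (isthmin 1) is a secreted protein of the lung. The WT mice were purchased C57BL/6J animals and the ISM1-/- mice, called ISM1-KO here, were generated in-house on that background, so an effect of genotype and one of animal source cannot be told apart. The labels do not name the animals, and an SD or a p-value here measures the spread between these libraries.

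Glucocorticoids bind the receptor encoded by Nr3c1, which chaperones keep in a hormone-ready state in the cytosol, and the bound receptor moves to the nucleus and acts at response elements in DNA. Fkbp5, Tsc22d3, Sgk1, Klf9, Dusp1, Zfp36, the metallothionein genes and Zbtb16 are known to be raised by the hormone in many cell types, and several of their products restrain inflammation or limit the hormone signal itself. In the lung, inhaled glucocorticoids are a mainstay of asthma treatment, and the body's own hormone follows a daily rhythm.

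Library totals lay between 37606133 and 42345042 counts, and the TMM scaling factors were between 0.985 and 1.005. Levels are given as CPM, the share of each library's reads scaled to a common size, after that correction. Ism1, the targeted gene, was counted 3098, 3215 and 2975 times in WT and 2784, 2508 and 2953 times in the samples labelled ISM1-KO. These kept 87.6% of the mean WT level, and the sources used here do not describe the deleted part, so genotypes are known from the labels alone. Of the lung markers, Sftpc, the surfactant protein C gene of type 2 alveolar cells, was at a mean of 12412 CPM over the 6 libraries. The 8 lung markers summed to 39227 to 41456 CPM in WT and to 32399 to 34578 CPM in ISM1-KO. Most of this sum came from Scgb1a1 and Sftpc, at means of 17794 and 12412 CPM, so it says little about the other markers. The log2 fold change of Sftpc stayed between -0.03 and 0.02 with each library left out in turn. At an adjusted p under 0.1, edgeR called 2 of them lower in ISM1-KO (3.34% over all genes). These were the club cell gene Scgb1a1 (log2 fold change -0.51, SE 0.0935, edgeR adjusted p = 0.0270) and the ciliated cell gene Foxj1 (-0.51, SE 0.0711, edgeR adjusted p = 0.0118). Foxj1 kept the call with each library left out in turn, and Scgb1a1 lost it without WT replicate 2 or ISM1-KO replicate 2. Their part in the values of the 10 genes was not tested.

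Zbtb16 (chr9:48654297-48836222, GRCm38, reverse strand) had 874, 545 and 510 counts in WT replicates 1 to 3 and 2483, 2530 and 11147 counts in ISM1-KO replicates 1 to 3. After scaling these were 23.2, 13.1 and 13.2 CPM against 58.4, 66.7 and 286 CPM. Every ISM1-KO library thus lay above every WT library, but the ISM1-KO values formed no tight group. The mean was 16.5 ± 5.79 CPM in WT (SD, n = 3) and 137 ± 129 CPM in ISM1-KO (SD, n = 3). The log2 fold change was 3.05 with a standard error (SE) of 0.572, and it was 1.93 (SE 0.215) without ISM1-KO replicate 3. Replicates 1 and 2 together stood at 3.79 times the WT mean and replicate 3 at 17.3 times it.

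ISM1-KO replicate 3 was then set beside replicates 1 and 2 for every gene averaging 1 CPM or more, as the ratio of its CPM to the mean of replicates 1 and 2. For Zbtb16 this ratio was 4.54-fold, the highest of 15876 genes. Of these genes, 19 (0.120%) were at least 2-fold higher in replicate 3 and 20 were at least 2-fold lower. The 19 also held genes of the heart muscle and fat marker lists read below. These were Nppa at rank 2, Pck1 at 4, Cfd at 5, Adipoq at 7, Fabp4 at 10 and Plin1 at 18. Among the 10 genes, Tsc22d3 ranked 14 at 2.13-fold and Fkbp5 ranked 15 at 2.12-fold. The other 7 had ratios between 0.760 (Zfp36) and 1.32 (Klf9). This is 1 library against 2, so no test applies to it.

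**Figure D1:**
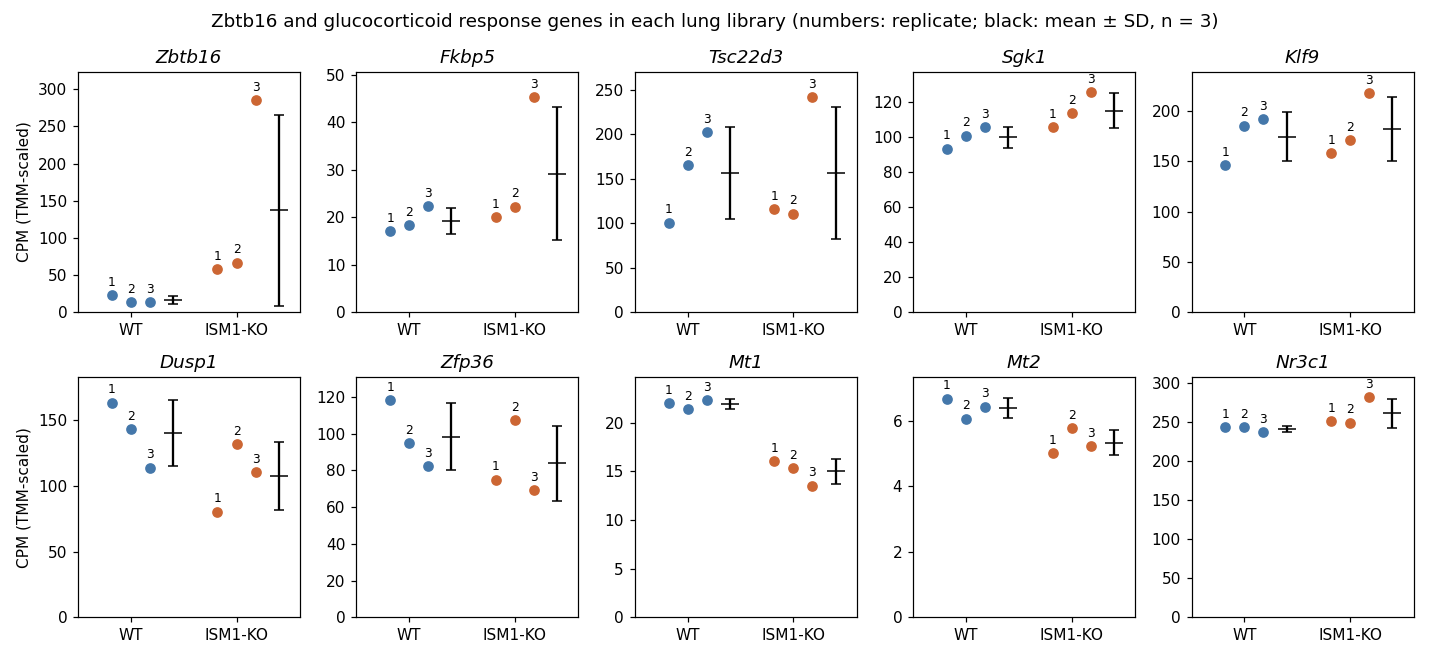
CPM of each of the 10 genes (vertical axes, from 0, TMM-scaled) in the 3 WT and 3 ISM1-KO libraries, with the replicate number above each point and the mean ± SD (n = 3) in black. ISM1-KO replicate 3 is the highest library for Zbtb16, Fkbp5, Tsc22d3, Sgk1, Klf9 and Nr3c1, while Mt1 and Mt2 are lower in every ISM1-KO library than in any WT library.

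Fkbp5 encodes a co-chaperone that lowers the affinity of the receptor for its hormone, a short feedback loop, and its transcript is widely used as a readout of glucocorticoid action. Fkbp5 (chr17:28399094-28517527) stood at 17.0, 18.2 and 22.3 CPM in WT and at 19.99, 22.2 and 45.3 CPM in ISM1-KO. ISM1-KO replicates 1 and 2 lay inside the WT range and replicate 3 lay above it, at 2.36 times the WT mean. The log2 fold change of 0.60 (SE 0.266) became 0.14 without replicate 3.

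Tsc22d3 encodes GILZ, the glucocorticoid-induced leucine zipper, which blunts inflammatory signalling. Its levels (chrX:140539528-140600659) were 101, 165 and 203 CPM in WT and 116, 111 and 242 CPM in ISM1-KO. The means were almost the same, 156 ± 51.6 CPM and 156 ± 74.3 CPM (SD, n = 3 each). WT replicate 1 and ISM1-KO replicates 1 and 2 were low, and the highest values sat in WT replicate 3 and ISM1-KO replicate 3. The log2 fold change was 0.00 (SE 0.308) and ranged from -0.46, without ISM1-KO replicate 3, to 0.23 as single libraries were left out.

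Klf9 encodes a Krüppel-like transcription factor that responds to the hormone and to the clock. Klf9 (chr19:23141226-23166911) had a similar order of libraries in a narrower range, with 146, 186 and 192 CPM in WT and 158, 171 and 218 CPM in ISM1-KO. Its log2 fold change was 0.06 (SE 0.129), and ISM1-KO replicate 3 was 1.25 times the WT mean. Per1, a clock repressor gene that the hormone also raises, was at 74.8, 200 and 194 CPM in WT and at 108, 72.7 and 154 CPM in ISM1-KO. WT replicate 1 was thus also among the low libraries for Per1, and the genotypes overlapped (log2 fold change -0.48, SE 0.345, edgeR adjusted p = 0.557).

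Sgk1 encodes the serum and glucocorticoid regulated kinase, which promotes sodium uptake across epithelia. Sgk1 (chr10:21882184-21999903) was at 93.2, 101 and 105 CPM in WT and at 105, 114 and 125 CPM in ISM1-KO. The genotypes did not overlap, although WT replicate 3 and ISM1-KO replicate 1 nearly touched. The log2 fold change was 0.20 (SE 0.0756). Sgk1 was the only one of the genes with a full palindromic glucocorticoid response element, in which any 3 bases may separate the arms, in the promoter windows searched, which ran from 250 bases before to 50 bases after each RefSeq transcript start and covered 15 starts of 8 genes. That element occurs in 3 of 32817 mouse promoter windows of the same length (0.00914%). The 150 bases around it, on the forward strand and inside the Sgk1 gene but outside its annotated exons, are shown with the element in capitals.
Sgk1 promoter, chr10:21993660-21993809: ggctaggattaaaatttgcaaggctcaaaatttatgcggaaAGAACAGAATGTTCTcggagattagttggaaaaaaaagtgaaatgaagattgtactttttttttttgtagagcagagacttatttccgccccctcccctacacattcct
The element begins 189 bases before the transcript start. A looser form of the element, which leaves further positions of the arms free and occurs in 0.475% of all windows, was found at 1 other of the 15 starts, that of Mt1, besides the Sgk1 element that it overlaps. No window of Fkbp5, Tsc22d3, Klf9 or Zfp36 held either form, which says only that these letters are not in those 300 bases.

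The receptor gene Nr3c1 (chr18:39410545-39491301) was among the steadiest of the 10, at 245, 244 and 238 CPM in WT and 252, 250 and 283 CPM in ISM1-KO. The genotypes did not overlap, but the gap between WT replicate 1 and ISM1-KO replicate 2 was small beside the step from there to replicate 3. The log2 fold change was 0.11 (SE 0.0630) with replicate 3 and 0.05 without it.

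Dusp1 and Zfp36 switch off inflammatory signals, Dusp1 as a phosphatase of MAP kinases and Zfp36 (tristetraprolin) as a factor that speeds the decay of cytokine mRNAs. Dusp1 (chr17:26505590-26508519) was at 163, 143 and 114 CPM in WT and 80.4, 132 and 111 CPM in ISM1-KO, with a log2 fold change of -0.38 (SE 0.170). Zfp36 (chr7:28376784-28380253) was at 118, 94.6 and 82.1 CPM in WT and 75.0, 107 and 69.1 CPM in ISM1-KO, with a log2 fold change of -0.23 (SE 0.168). Both genes were highest in WT replicate 1 among the WT libraries and in ISM1-KO replicate 2 among the ISM1-KO libraries, and neither was raised in ISM1-KO replicate 3. An antisense gene, Gm44710, overlaps Zfp36 with a mean of 169 counts per library. The strand setting of the counting is not given, so reads from the 2 genes may not be fully separated.

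Immediate early genes, which cells switch on within minutes of a stimulus, were read beside them. Of 17 such genes, 8 had their highest WT value in replicate 1 and their highest ISM1-KO value in replicate 2, as Dusp1 and Zfp36 did, while 4 (Jun, Klf2, Klf4 and Klf6) had their lowest WT value in replicate 1. Egr1 was at 113 CPM in WT replicate 1 against 27.0 and 22.3 CPM in the other WT libraries, and at 76.0 CPM in ISM1-KO replicate 2 against 23.1 and 22.1 CPM in the other ISM1-KO libraries. Fos was at 41.5, 16.4 and 14.8 CPM in WT and at 12.7, 33.5 and 14.9 CPM in ISM1-KO. Of the 17 genes, edgeR called 1 higher in ISM1-KO at an adjusted p under 0.1 (1.38% over all genes) and none lower (3.34%). The gene was Ier3 (log2 fold change 0.31, SE 0.0805, edgeR adjusted p = 0.0849). In this list 2 genes had an unadjusted p under 0.05 (15.8% over all genes). DESeq2 also called Ier3 alone, where it called 2.49% of all genes higher and 4.38% lower. Ier3 kept its call in 1 of the 6 fits with a library left out, the one without ISM1-KO replicate 3, with log2 fold changes from 0.22 to 0.36. The part of the immediate early response in the Dusp1 and Zfp36 values was not tested.

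Dusp1 was the only one of the 8 genes with a full cyclic AMP response element (TGACGTCA, in 1.79% of all windows) in its promoter window, 143 bases before the start. The 150 bases around it, read on the reverse strand, have the element in capitals. They lie upstream of the gene bounds of the deposited table, in an intron of a longer Dusp1 transcript of the GENCODE annotation.
Dusp1 promoter, chr17:26508523-26508672, reverse strand: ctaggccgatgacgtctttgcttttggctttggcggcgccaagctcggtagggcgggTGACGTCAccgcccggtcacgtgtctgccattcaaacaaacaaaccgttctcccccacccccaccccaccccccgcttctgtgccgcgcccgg

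Metallothioneins bind zinc and other metals and are raised both by metals, through the factor MTF1, and by glucocorticoids. Mt1 (chr8:94179082-94180327) was lower in ISM1-KO, with 22.0, 21.4 and 22.4 CPM in WT and 16.1, 15.4 and 13.6 CPM in ISM1-KO. The means were 21.9 ± 0.494 CPM and 15.0 ± 1.31 CPM (SD, n = 3 each), the log2 fold change was -0.55 (SE 0.0823), and no single library moved it outside -0.60 to -0.48. Mt2 (chr8:94172664-94173568) was at 6.68, 6.07 and 6.44 CPM in WT and 5.01, 5.77 and 5.23 CPM in ISM1-KO. Its genotypes did not overlap either, and its log2 fold change was -0.26 (SE 0.116). Both genes were lowest, or second lowest, in the library with the highest Zbtb16. Mt2 overlaps the antisense gene Gm45774, which had a mean of 38.5 counts per library against 204 to 252 for Mt2.

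The promoter windows of the 2 metallothionein genes, which are neighbours on chromosome 8, held 3 (Mt1) and 4 (Mt2) copies of the metal response element core (TGCACNC or TGCGCNC on either strand). At least 3 copies occur in 1.97% of all windows and at least 1 copy in 25.7%. Stretches of 150 bases before each start are shown on the forward strand with the core in capitals, where GTGTGCA is the core read on the other strand. They hold 1 of the 3 copies of Mt1 and 2 of the 4 of Mt2. The other Mt1 copies begin after the start, at bases 3 and 21. Those of Mt2 begin 223 bases before the start and at base 5 after it. The Mt1 stretch lies in no annotated gene and holds the loose receptor element 94 bases before the start, and the Mt2 stretch overlaps an exon of Gm45774.
Mt1 promoter, chr8:94178932-94179081: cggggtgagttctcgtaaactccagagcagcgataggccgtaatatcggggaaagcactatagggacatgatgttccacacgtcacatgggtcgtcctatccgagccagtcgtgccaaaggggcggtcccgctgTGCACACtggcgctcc
Mt2 promoter, chr8:94172468-94172617: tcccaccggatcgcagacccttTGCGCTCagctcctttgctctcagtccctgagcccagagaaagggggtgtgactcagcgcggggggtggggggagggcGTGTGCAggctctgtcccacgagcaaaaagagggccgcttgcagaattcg

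Among 11 further metal-handling genes that were tested (Mt4 did not pass the filter), edgeR called none in either direction at an adjusted p under 0.1. Of these genes, 1 had an unadjusted p under 0.05 (15.8% over all genes), and DESeq2 called none. Slc30a1, the zinc exporter gene that MTF1 raises, was at 78.7, 78.5 and 70.9 CPM in WT and 80.0, 91.5 and 87.5 CPM in ISM1-KO, with a log2 fold change of 0.18 (SE 0.0708, edgeR adjusted p = 0.238). Mtf1 itself had a log2 fold change of -0.02 (SE 0.0853). The metallothionein gene Mt3 was barely counted, at 0.0706 to 0.504 CPM.

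The counts over the 10 genes are set beside the same counts over all genes. Zbtb16 was the only one of the 10 called by edgeR at an adjusted p under 0.1 with at least a 2-fold change, a rule met by 106 genes in all (0.567%). Without the fold minimum, Zbtb16 was higher, where 1.38% of all genes were, and Mt1 was lower, where 3.34% were. Zbtb16, Sgk1 and Nr3c1 lay higher in ISM1-KO with no overlap between genotypes, as did 9.33% of all genes. Mt1 and Mt2 lay lower with no overlap, as did 12.3% of all genes. The median log2 fold change was 0.03 over the 10 genes and 0.00 over all genes tested. Since the genes were chosen on this contrast, nothing is read from these counts.

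A list of 30 other genes known to be raised by glucocorticoids was examined in the same fit. None was higher in ISM1-KO at an adjusted p under 0.1, 2 were lower, and 8 had an unadjusted p under 0.05, while DESeq2 called Cebpb alone. Over all genes, 1.38% were higher, 3.34% were lower and 15.8% had an unadjusted p under 0.05. DESeq2 called 2.49% of all genes higher and 4.38% lower. The list's median log2 fold change was -0.04. The called genes were Cebpb and Cebpd, which encode transcription factors of the acute phase and of fat cell differentiation. Cebpb was at 114, 120 and 98.7 CPM in WT and 83.0, 93.5 and 63.4 CPM in ISM1-KO (log2 fold change -0.47, SE 0.127, edgeR adjusted p = 0.0967). Cebpd was at 59.0, 130 and 123 CPM in WT and 56.9, 52.8 and 61.8 CPM in ISM1-KO (log2 fold change -0.87, SE 0.235, edgeR adjusted p = 0.0966), so WT replicate 1 lay with the ISM1-KO libraries.

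Both calls were near the threshold. Cebpb kept its call only without ISM1-KO replicate 2 or 3, with log2 fold changes from -0.60 to -0.33 over the 6 fits, and lost it when any 1 WT library or ISM1-KO replicate 1 was left out. Cebpd kept its call only without WT replicate 1, with log2 fold changes from -1.15 to -0.67. Without ISM1-KO replicate 3, 5 of the 30 genes were lower and none higher, namely Cebpb, Errfi1, Pdk4, Ddit4 and Lpin1. In that fit 4.84% of all genes were lower and 3.07% higher.

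Further genes of the list differed in size but not past the threshold. Il1r2, the decoy receptor gene for interleukin 1, had a log2 fold change of 0.98 (SE 0.352) at 0.292 to 1.002 CPM. Errfi1, a feedback inhibitor of the EGF receptor, had -0.71 (SE 0.237), and Pdk4, a brake on pyruvate oxidation, had -0.63 (SE 0.282). Fam107a, a stress-induced actin-binding protein gene, had 0.62 (SE 0.351).

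**Figure D2:**
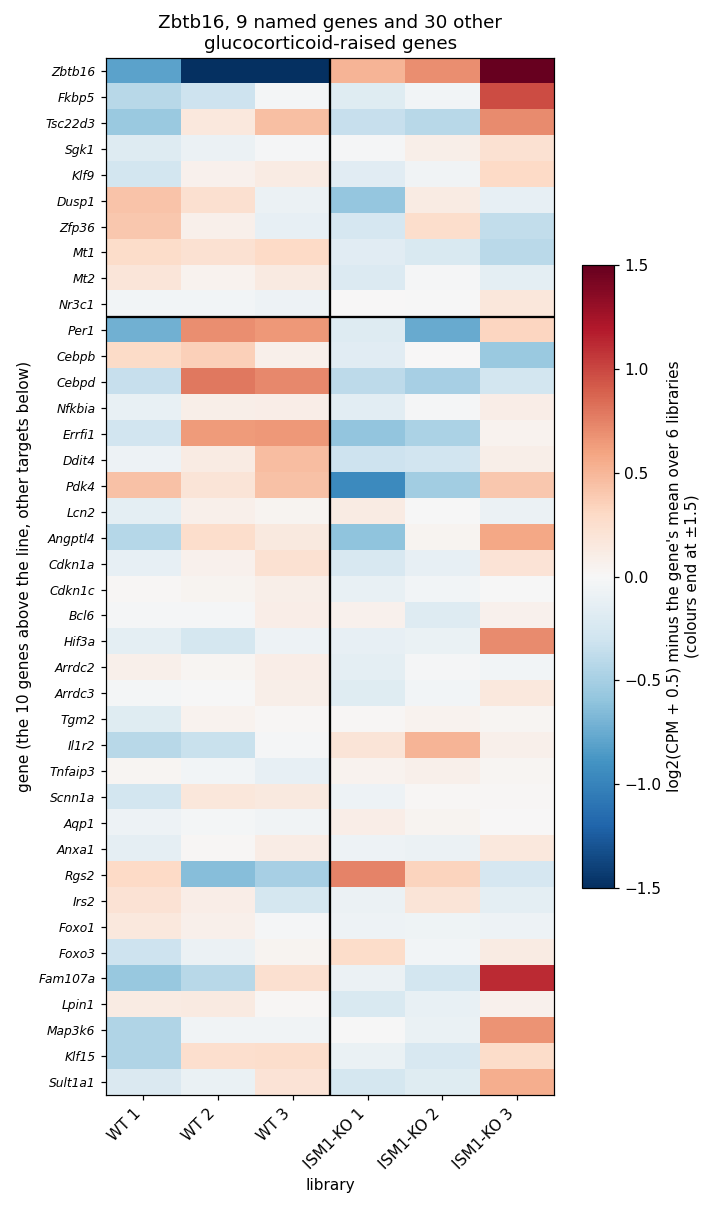
Each row is a gene and each column a library, and the colour gives log2(CPM + 0.5) minus the gene's mean over the 6 libraries, with colours ending at ±1.5. The upper block holds Zbtb16 and the 9 named genes and the lower block the 30 other glucocorticoid-raised genes. Per1, Cebpd and Errfi1 are higher in WT replicates 2 and 3 than in any other library, and Fkbp5, Hif3a, Fam107a and Map3k6 are highest in ISM1-KO replicate 3.

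In ISM1-KO replicate 3, 20 of the 30 list genes were above the mean of replicates 1 and 2, with a median log2 ratio of 0.18 against 0.00 over all genes tested. Libraries also differed within WT. There the list's median log2 ratio of replicate 1 to the mean of replicates 2 and 3 was -0.21, against -0.003 over all genes tested. Fam107a (12.5, 10.9 and 29.4 CPM in ISM1-KO) and Pdk4 (6.61, 9.07 and 17.7 CPM) were at least 2-fold higher in ISM1-KO replicate 3. Hif3a, a hypoxia factor gene, was at 4.09, 4.19 and 7.71 CPM, and Map3k6, a stress kinase gene, was at 30.2, 28.3 and 48.6 CPM. The ratio of replicate 3 to replicates 1 and 2 was 1.77-fold for Angptl4, 1.71-fold for Sult1a1 and 1.70-fold for Per1. Against the WT mean, replicate 3 stood at 1.48 times for Angptl4, 1.49 times for Sult1a1 and 0.988 times for Per1. Pdk4 in replicate 3 was level with WT (1.03 times the mean), whereas Fam107a was 2.57 times the WT mean. Rgs2, a regulator of G protein signalling, went the other way, at 91.2, 68.7 and 45.5 CPM in ISM1-KO against 66.7, 34.8 and 38.4 CPM in WT.

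**Figure D3:**
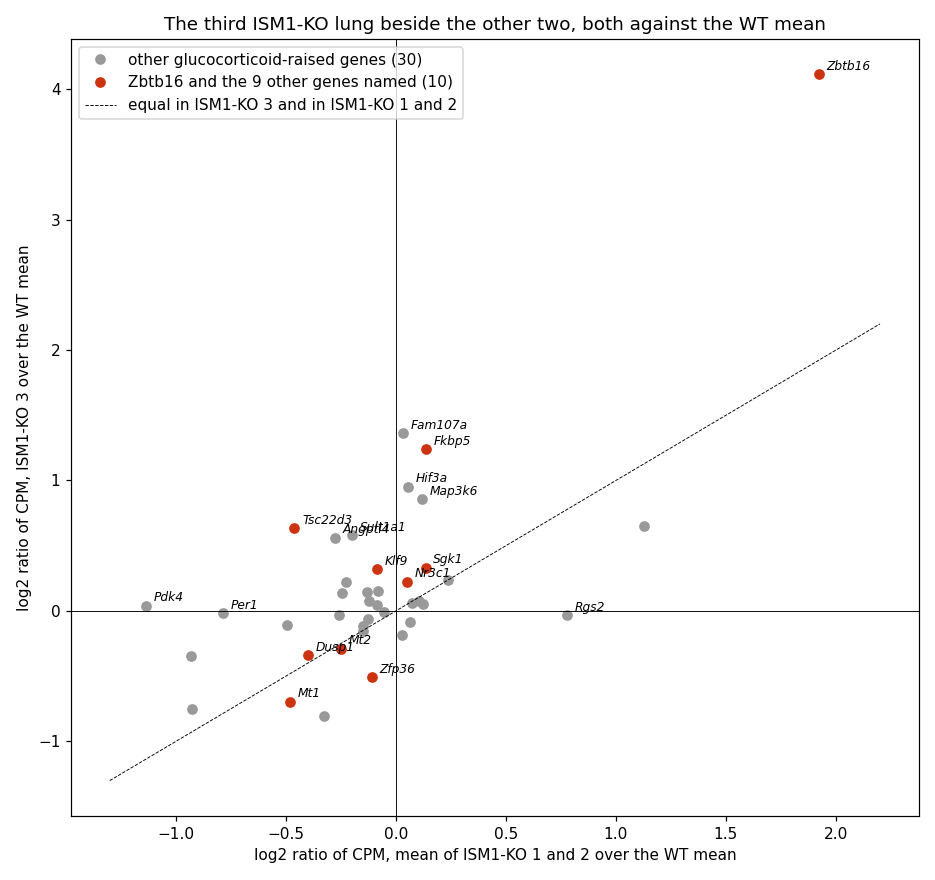
Log2 ratio to the WT mean of ISM1-KO replicate 3 (vertical) against that of the mean of ISM1-KO replicates 1 and 2 (horizontal) for the 10 genes in red and 30 other glucocorticoid-raised genes in grey, with a dashed line where both are equal. Both axes share the WT mean. Zbtb16 lies far above the line and to the right of 0, and Fkbp5 and Tsc22d3 lie above the line, Tsc22d3 to the left of 0.

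The receptor's own apparatus was a list of 20 genes for hormone activation, chaperones, coregulators and export. The median log2 fold change of the list was 0.02. At an adjusted p under 0.1, 1 gene was higher (1.38% over all genes) and none lower (3.34%). The gene was Abcb1a, a drug efflux pump that exports glucocorticoids, at 83.5, 88.2 and 79.0 CPM in WT and 102, 93.9 and 103 CPM in ISM1-KO (log2 fold change 0.26, SE 0.0655, edgeR adjusted p = 0.0773). It kept its call in 1 of 6 fits with a library left out, the one without ISM1-KO replicate 3, with log2 fold changes from 0.22 to 0.30. Hsd11b1, which regenerates active hormone within cells, was at 183, 171 and 186 CPM in WT and 176, 201 and 248 CPM in ISM1-KO (log2 fold change 0.21, SE 0.108, edgeR adjusted p = 0.376). Hspa8, a chaperone gene, had a log2 fold change of 0.26 (SE 0.112, edgeR adjusted p = 0.305). For Fkbp4, the co-chaperone that opposes Fkbp5, the log2 fold change was 0.01 (SE 0.0691), and for Nr3c2, the mineralocorticoid receptor gene, it was -0.06 (SE 0.108).

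**Figure D4:**
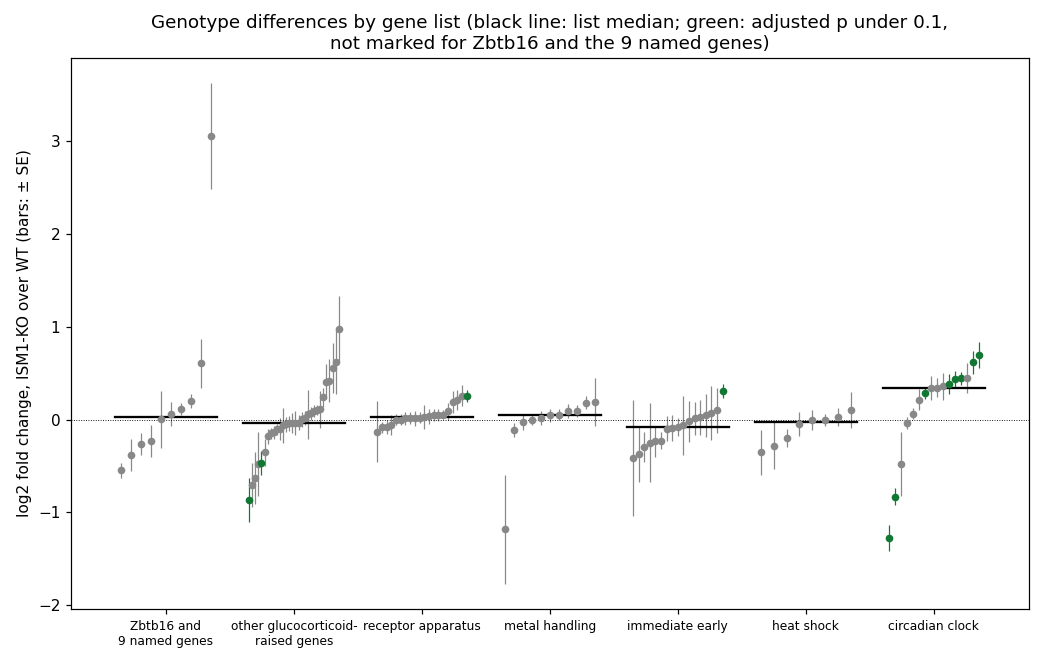
Log2 fold change of ISM1-KO over WT for each tested gene of 7 lists, ordered within its list, with bars of ± SE, the list median as a black line and genes at an edgeR adjusted p under 0.1 in green (not marked for Zbtb16 and the 9 named genes). Zbtb16 stands apart at 3.05, the median of the other glucocorticoid-raised genes is -0.04, and the clock list holds 8 green points.

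Relatives of the 10 genes were also listed. The Zbtb16 family (BTB and zinc finger proteins) was read over 14 genes. At an adjusted p under 0.1, edgeR called 1 lower (3.34% over all genes) and none higher (1.38%). It was Zbtb7c, at 7.05, 6.63 and 6.10 CPM in WT and 4.49, 4.69 and 4.51 CPM in ISM1-KO (log2 fold change -0.53, SE 0.116, edgeR adjusted p = 0.0478). The other 13 lay between -0.28 (Zbtb32) and 0.30 (Bcl6b). Bcl6b was also called higher by DESeq2 (DESeq2 adjusted p = 0.0853) and by the edgeR fit without ISM1-KO replicate 3. Over all genes, 2.49% and 3.07% were called higher in these fits. Among 19 tested relatives of the other genes (Sgk2 and Zfp36l3 did not pass the filter), 1 was higher (1.38% over all genes) and none lower (3.34%). It was Dusp2, a phosphatase of activated leukocytes (log2 fold change 0.55, SE 0.145, edgeR adjusted p = 0.0861). Zbtb7c and Dusp2 each kept the call in 1 of 6 fits with a library left out, the one without ISM1-KO replicate 3, with log2 fold changes from -0.58 to -0.48 and from 0.46 to 0.64.

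Per1 and Klf9 belong to the daily rhythm as well, and the clock list, which was added after values of these data were known, differed between genotypes. Of 16 clock genes, 6 were higher and 2 lower at an adjusted p under 0.1, with a median log2 fold change of 0.34, against 1.38% higher and 3.34% lower over all genes. Arntl, which encodes the activator BMAL1, was at 24.6, 22.7 and 26.2 CPM in WT and 15.3, 12.99 and 12.94 CPM in ISM1-KO (log2 fold change -0.83, SE 0.0919, edgeR adjusted p = 0.00739). Its relative Npas2 had a log2 fold change of -1.27 (SE 0.140, edgeR adjusted p = 0.00739). The genes that rose were Per2 (0.62), Per3 (0.28), Nr1d2 (0.44), Dbp (0.69), Tef (0.44) and Ciart (0.38), which are repressors or outputs of the clock.

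Arntl, Npas2 and Tef kept the call with each of the 6 libraries left out in turn. Per2 lost it without ISM1-KO replicate 1, Nr1d2 without WT replicate 2 or 3, and Dbp without WT replicate 2 or ISM1-KO replicate 1 or 2. Per3 kept it only without WT replicate 1 or ISM1-KO replicate 3, and Ciart in none of the 6 fits. For these genes the ratio of ISM1-KO replicate 3 to replicates 1 and 2 was 0.764-fold to 1.22-fold over the list apart from Per1 (1.70-fold). The hour of lung collection is not given in the sources used here, and the part of the clock in the values of the 10 genes was not tested. Of 8 heat shock genes, edgeR and DESeq2 called none and none had an unadjusted p under 0.05 (15.8% over all genes).

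PLZF is also the defining transcription factor of innate-like lymphocytes, so markers of these cells were read beside Zbtb16. In bulk RNA, more cells of a type and more RNA per cell cannot be told apart. Of 13 tested markers (Il17a did not pass the filter), edgeR called 3 higher in ISM1-KO and none lower (1.38% and 3.34% over all genes), with a median log2 fold change of 0.46. They were Cd163l1 (1.19, SE 0.279, edgeR adjusted p = 0.0577), Blk (0.74, SE 0.190, edgeR adjusted p = 0.0817) and Il7r (0.46, SE 0.0867, edgeR adjusted p = 0.0298). Cd163l1 and Blk kept the call only without ISM1-KO replicate 3, with log2 fold changes from 0.996 to 1.48 and from 0.51 to 0.95, and Il7r lost it without WT replicate 2 or ISM1-KO replicate 1.

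In ISM1-KO replicate 3, 4 of the 13 lymphocyte markers were above the mean of replicates 1 and 2. Within ISM1-KO, replicate 3 was highest for Klrb1b, at 5.67, 4.24 and 6.33 CPM. It was lowest for Cd163l1, at 5.81, 5.48 and 2.59 CPM, and for Blk, at 20.1, 15.8 and 10.7 CPM. Over all 6 libraries Cd163l1 and Blk averaged 3.32 and 12.4 CPM, and both were higher in ISM1-KO than in WT. The summed level of the markers was 389 to 398 CPM in WT and 415 to 434 CPM in ISM1-KO, with ISM1-KO replicate 3 at 415 CPM. Most of this sum came from Il18r1 and Sox13, at means of 162 and 130 CPM, so it says little about the scarcer lymphocyte markers. The part of these cells in the Zbtb16 values of ISM1-KO replicates 1 and 2 was not tested.

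Lists of fat and heart muscle markers differed between ISM1-KO replicate 3 and replicates 1 and 2. The authors located adiponectin, the product of Adipoq, in lung cells stained for a type 2 alveolar marker. They saw no significant change of it in adipose tissues of ISM1-/- mice. Of 10 adipocyte markers, edgeR called 9 lower in ISM1-KO at an adjusted p under 0.1 (3.34% over all genes). They were Adipoq, Cfd, Cidec, Fabp4, Lep, Pck1, Plin1, Retn and Slc2a4. DESeq2 called 8 lower (4.38% over all genes). The edgeR count was 5 without WT replicate 2, 4 without ISM1-KO replicate 1 and 3 without ISM1-KO replicate 2. In those fits 0.618%, 0.910% and 0.974% of all genes were lower. The list summed to 254 to 309 CPM in WT but to 100, 122 and 178 CPM in ISM1-KO replicates 1 to 3. Of 10 cardiomyocyte markers, edgeR called 1 (Myl7, log2 fold change -1.11, SE 0.302) lower at that threshold and DESeq2 none. All 10 had an unadjusted edgeR p under 0.05 (15.8% over all genes), with a median log2 fold change of -1.01. With no filter on low counts, edgeR called all 10 lower (3.34% over all genes in that fit). Of the 6 fits with a library left out, Myl7 kept the call only in the one without ISM1-KO replicate 3. There 4 markers were called lower (4.84% over all genes). The log2 fold changes of Myl7 over the 6 fits ran from -1.34 to -0.66. The list summed to 1670, 550 and 656 CPM in WT and to 302, 416 and 585 CPM in ISM1-KO. All 10 markers of each list were higher in ISM1-KO replicate 3 than in the mean of replicates 1 and 2, and none was at 0 in any library. In replicate 3 the adipocyte sum lay below and the cardiomyocyte sum within the WT range, Pdk4 lay within its own WT range, and Zbtb16, Fkbp5 and Tsc22d3 lay above theirs. The part of these tissues in the replicate 3 values was not tested.

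Levels of the 10 genes were compared with each other per length, as the deposited FPKM. In WT lungs the order began with Tsc22d3 at 95.8 ± 31.7 FPKM, followed by Nr3c1 (82.7), Dusp1 (81.9), Sgk1 (73.2), Klf9 (53.6), Zfp36 (37.5), Mt1 (29.1), Mt2 (14.3) and Fkbp5 (10.95). Zbtb16 came last at 4.34 ± 1.53 FPKM (SD, n = 3). In ISM1-KO lungs Zbtb16 stood sixth by its mean of 35.6 ± 33.1 FPKM, between Klf9 (55.6) and Zfp36 (31.8). Its 3 values were 15.4, 17.5 and 73.8 FPKM. In replicates 1 and 2 it lay below Mt1 (21.4 and 20.4 FPKM), and its replicate 3 value was above the Dusp1 mean (62.6). In WT the ranges of Tsc22d3 (61.8 to 125 FPKM) and Dusp1 (66.6 to 95.5 FPKM) took in those of Nr3c1 and Sgk1, and Klf9 and Zfp36 just overlapped (44.96 and 45.14 FPKM at the near ends). The other neighbours, from Zfp36 down to Zbtb16, did not overlap.

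This order depends on the gene length. The deposited FPKM of Fkbp5 implies a length of 1754 bases where the table lists 9468, that of Zbtb16 implies 3809 where it lists 5283, and that of Klf9 equals the listed 3263. With the listed lengths Klf9 led in WT at 53.6 FPKM and Fkbp5 was last at 2.03 FPKM, below Zbtb16 at 3.13 FPKM. Comparisons of 1 gene between libraries do not change with this length.

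The genes around Zbtb16 were read in the same way. Of 19 genes listed within 500 kb, 10 passed the filter, and none passed an adjusted p of 0.1. The nearest to the threshold was Nxpe4, at 29.8, 29.8 and 32.9 CPM in WT and 36.5, 36.2 and 36.3 CPM in ISM1-KO (log2 fold change 0.24, SE 0.0656, edgeR adjusted p = 0.1005). For Nnmt, a methyltransferase gene, the log2 fold change was -0.04 (SE 0.121).

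The genes most like Zbtb16 were sought by Pearson's r of log2 CPM over the 6 libraries among 15875 other genes averaging 1 CPM or more. With 6 points and so many genes, high values of r are common, and 354 genes exceeded 0.9 and 425 lay below -0.9. The 5 highest were Adamts6 (0.994), Tcaf1 (0.992), Acap2 (0.992), Rgs12 (0.992) and Pgpep1l (0.991), and the 5 lowest were Mvk (-0.996), Traf4 (-0.995), Junos (-0.995), Atp6v1c2 (-0.994) and Ramp1 (-0.994). Their range was far narrower than that of Zbtb16, as Adamts6 shows with 8.09, 7.18 and 7.29 CPM in WT and 10.1, 9.70 and 14.5 CPM in ISM1-KO. Among the other 9 genes r was 0.93 for Nr3c1, 0.82 for Sgk1, 0.82 for Fkbp5, 0.36 for Klf9, 0.22 for Tsc22d3, -0.39 for Dusp1, -0.49 for Zfp36, -0.75 for Mt2 and -0.95 for Mt1. These values rest on few libraries, with ISM1-KO replicate 3 at one end of the axis, and are a description.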

How the data were processed

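The authors extracted RNA from perfused whole lungs, made strand-specific poly-A libraries, sequenced them as read pairs, removed low-quality reads and adaptors and mapped the rest to GRCm38 with STAR. CASAVA is also named in the submitters' processing notes. The deposited counts are whole numbers of reads per gene without normalization, and the deposited FPKM were made by the authors from the counts, the library total and a gene length. The counting program, annotation and strand setting are not given in the sources used here. Library totals of 37606133 to 42345042 counts limit the precision for genes under about 1 CPM.

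Groups and replicate numbers came from the labels. A gene was kept if any 1 library reached 0.5 CPM. Counts were scaled by TMM and tested with edgeR 4.0.16 in R 4.3.3 (estimateDisp, glmQLFit, glmQLFTest, no covariates), with Benjamini-Hochberg adjustment over all 18689 genes. Log2 fold changes are ISM1-KO over WT. Their SE was derived from the edgeR test, as the absolute log2 fold change over the square root of the F statistic. For Zbtb16 this gave 0.572, where the SE from DESeq2 was 0.774. Log2 ratios between libraries used an offset of 0.5 CPM, and correlations a prior count of 2. The test was tried on simulated data with 200 changed genes. In chi-square comparisons, every pair of libraries differed by more than sampling noise.

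The 10 genes and all gene lists were chosen with earlier results of these data known. Genes named in the text are the 10, Ism1, Per1, from each list those past an adjusted p of 0.1 and some of the up to 4 more with the largest absolute log2 fold change, the 5 genes most like and least like Zbtb16, and genes overlapping the 10 or within 500 kb of Zbtb16. Other genes named (Fkbp4, Nr3c2, Mtf1, Hif3a, Map3k6, Angptl4, Sult1a1, Rgs2, Jun, Klf2, Klf4, Klf6, Klrb1b, Il18r1, Sox13, Ddit4, Lpin1 and Sftpc) were singled out after their values were seen or for their role. Promoter windows came from the RefSeq table on GRCm38, which was matched by symbol, and 4 motifs were searched on both strands. Exons came from the GENCODE annotation of the same build. No promoter was searched for Zbtb16 or Nr3c1.

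Alternatives were DESeq2 1.42.0, RLE size factors, an adjusted p of 0.05, different low-count filters, the replicate number as a block, each library left out in turn, CPM by library total, and limma 3.58.1 on log2(FPKM + 1). The clock list was carried through the alternatives after the data were seen.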

Additional observations from a re-analysis of the deposited data

How the results depend on the processing

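The log2 fold changes of the 10 genes moved by less than the spread between replicates in 129 of 130 fits and the levels in all 20. The exception was Zbtb16 without ISM1-KO replicate 3 (1.93). That spread is a loose limit where a library is left out, because an outlying library widens it. Fkbp5 fell from 0.60 to 0.14 without ISM1-KO replicate 3 and still counted as within it. Over single libraries left out, Tsc22d3 ran from -0.46 to 0.23 and Klf9 from -0.08 to 0.16, so neither has a direction. Counts of genes called depended more on the settings. Genes called with at least a 2-fold change numbered 106, but 37 with a mean above 2 CPM, 293 with no filter, 51 at an adjusted p of 0.05 and 31 to 188 with a library left out (188 without ISM1-KO replicate 3). Genes past the adjusted p numbered 882, but 1632 with no filter, 455 at 0.05 and 150 to 1470 with a library left out (150 without WT replicate 2, 1470 without ISM1-KO replicate 3). Of the 10 genes, 2 were past it, 4 with no filter and 1 to 2 with a library left out (1 without WT replicate 2, where Zbtb16 was not called). Of the 30 other glucocorticoid-raised genes, 2 were past it, but 1 with DESeq2 and 0 with a mean above 2 CPM. With no filter there were 8 (3 higher, 5 lower, against 1.77% and 3.34% of all genes). At 0.05 there were 0, and with a library left out 0 to 5 were past the adjusted p. Of the 20 apparatus genes, 1 was past it, but 2 with no filter, 0 at 0.05 and 0 to 1 with a library left out. Of the 16 clock genes, 8 were past it, and 4 to 11 with a library left out. The cause of these shifts was not tested.

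Replicate numbers did not pair the libraries, with correlations of -0.04, 0.03 and 0.00 between same-numbered libraries' deviations. With the replicate block, 130 genes were called at 2-fold and 1105 past the adjusted p, with 4 of the 10 genes (Zbtb16, Sgk1 and Fkbp5 higher, Mt1 lower), 6 of the 30 targets, 1 apparatus gene and 11 clock genes, and the log2 fold change of Zbtb16 was 2.68 (SE 0.465).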
